A study of Mus musculus with 2 samples.

Results

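The cytosolic ribosomal protein genes encode the proteins of the large (Rpl) and small (Rps) subunits of the ribosome that translates nuclear mRNAs. They were taken as all rows of the deposited expression table whose gene symbol is Rpl or Rps with a number and at most a suffix a, l, x, y or al, or is Rplp0, Rplp1, Rplp2 or Rpsa. This choice used symbols only and gave 82 of 23276 genes, 50 of the large and 32 of the small subunit. Of these, 79 had a mean of at least 1 FPKM over both libraries (FPKM, fragments per kilobase of transcript, scaled to the library's mapped fragments), and the remaining 3, the paralogues Rpl3l, Rpl10l and Rpl39l, did not.

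A ribosome carries one copy of nearly every ribosomal protein, so that cells make these proteins in matched amounts, largely by controlling the translation of their mRNAs through a pyrimidine tract at the 5′ end. Growing tissues such as the embryonic heart use much of their transcription and translation to build ribosomes. Loss of one copy of several of these genes causes Diamond-Blackfan anaemia in people, a failure of red cell formation that can come with heart malformations.

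The study compared heart ventricles of wild-type (WT) mouse embryos with those of embryos lacking Fendrr, a long non-coding RNA gene beside Foxf1, on both alleles (KO). All embryos were on a C57BL/6 x 129SV background, were taken at E12.5, in mid-gestation, and grew from embryonic stem cells by tetraploid complementation, in which a tetraploid host supplies mainly the extraembryonic tissues. In the KO cells both alleles had been targeted by homologous recombination, and the number of cell clones was not given. RNA of 4 ventricles was pooled into 1 library per genotype, so no difference below has a replicate check, no p-value is given, and "higher" and "lower" compare 2 libraries.

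The libraries were sequenced on separate runs, and the bases of the WT run were called by hand after that run stopped early, so genotype, run and base calling cannot be told apart. Total depth is unknown. From the steps between low values, the KO library held an estimated 1.26 times the fragments of the WT library. No row is named Fendrr, and that of its former name 1110050K14Rik is at 0 for WT and KO alike, which leaves the genotype unchecked. The 10 markers of ventricular cardiomyocytes, all expressed, summed to 22810 FPKM in the WT and 23145 FPKM in the KO library. Their median log2 ratio was -0.03, with 5 of 10 below 0, and they ran from Myl3, at 2671 and 1651 FPKM (-0.69), to 0.51. In bulk samples, fewer cells of a type and less RNA per cell cannot be told apart.

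For 61 of the 82 genes, RefSeq (build GRCm38.p6) gave a promoter window of 250 bases before to 50 bases after the annotated start. The first set below shows 45 bases before to 15 bases after the start of 4 genes with low and 4 with high ratios. They were taken from the genes with a window, so that both ends of the KO to WT distribution can be read side by side. The choice was not a strict ranking of the family. Rps14, at a log2 ratio of -0.55, lay below Rps15a at -0.52 and is not shown. Capitals mark the longest uninterrupted run of C and T in the 20 bases on each side of the start, cut at that limit, the kind of tract that can open the mRNA. The windows are Rps19 at chr7:24884547-24884606 on the plus strand, Rps15a at chr7:118116133-118116192 on the minus strand, Rpl10a at chr17:28328426-28328485 on the plus strand, Rps25 at chr9:44407669-44407728 on the plus strand, Rpl39 at chrX:37085208-37085267 on the minus strand, Rps26 at chr10:128626492-128626551 on the minus strand, Rpl34 at chr3:130730384-130730443 on the minus strand and Rpl26 at chr11:68901521-68901580 on the plus strand.
Rps19: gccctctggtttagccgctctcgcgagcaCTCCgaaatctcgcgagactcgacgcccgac
Rps15a: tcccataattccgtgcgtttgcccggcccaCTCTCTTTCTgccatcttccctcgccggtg
Rpl10a: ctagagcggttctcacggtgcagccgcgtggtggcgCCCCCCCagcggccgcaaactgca
Rps25: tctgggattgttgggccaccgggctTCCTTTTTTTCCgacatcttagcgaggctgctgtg
Rpl39: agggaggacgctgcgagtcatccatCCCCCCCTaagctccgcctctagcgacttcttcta
Rps26: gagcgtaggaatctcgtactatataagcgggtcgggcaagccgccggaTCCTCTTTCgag
Rpl34: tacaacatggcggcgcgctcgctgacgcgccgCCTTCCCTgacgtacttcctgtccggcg
Rpl26: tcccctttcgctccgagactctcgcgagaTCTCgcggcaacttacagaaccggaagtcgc
A run of at least 8 pyrimidines within 20 bases of the start was present in 27 of the 61 windows (44.3%), against 15.9% of the 27025 genes in the promoter table. Among the genes shown, such runs lay at both ends. At the low end, those in Rps15a and Rps25 were 10 and 12 bases long. At the high end, those in Rpl39, Rps26 and Rpl34 were 8, 9 and 8 bases long. Rps19 and Rpl26, at opposite ends, each had 4. These places hold for the separate rows. Summed with its near-identical copy, as given below, Rpl26 had a log2 ratio of -0.19 in place of 0.65, and those of Rpl34 and Rps15a also moved toward 0. The 27 genes with a run of at least 8 had a median log2 ratio of -0.14 and the 31 expressed genes without one -0.21. The annotated start of a gene can differ from the base that is used, so that a tract may lie outside these windows.

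Other short promoter motifs were counted in the whole window of 300 bases on both strands. CCGGAAG, the core bound by ETS factors such as GABP, was in 24 of 61 windows (39.3%) and in 9.12% of all genes' windows. GGGCGG, the GC box of SP1, was in 36 windows (59.0%, against 35.9%), and AAGATGG, the YY1 core, in 8 (13.1%, against 6.48%). TATAAA was in 5 windows (8.20%, against 14.2%). CTTTCC was in 30 windows (49.2%, against 26.3%), and it can lie in the pyrimidine tract counted above.

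The second set shows the same stretch for the paralogues that were at or near 0 in both libraries, beside Rpl10, the broadly expressed parent of Rpl10l. The windows are Rpl10 at chrX:74270771-74270830 on the plus strand, Rpl10l at chr12:66284387-66284446 on the minus strand, Rpl39l at chr16:10170183-10170242 on the plus strand and Rpl3l at chr17:24727781-24727840 on the plus strand.
Rpl10: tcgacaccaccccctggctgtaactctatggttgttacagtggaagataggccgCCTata
Rpl10l: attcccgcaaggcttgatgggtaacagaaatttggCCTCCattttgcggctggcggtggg
Rpl39l: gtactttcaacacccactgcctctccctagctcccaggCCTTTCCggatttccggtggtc
Rpl3l: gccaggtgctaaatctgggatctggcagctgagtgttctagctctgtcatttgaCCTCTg
Rpl10 itself, at 550 FPKM in WT, had no run of pyrimidines longer than 3 bases near its annotated start, while Rpl39l, listed at 0, had one of 7. The runs in Rpl10l and Rpl3l were each 5 bases long.

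The ribosomal protein genes were among the most abundant transcripts of the ventricle, at nearly the same share in both libraries. They held 14.0% of all FPKM in WT and 13.9% in KO, and 43 of the 100 genes of highest FPKM were ribosomal protein genes in each library. The 79 expressed genes ran from 40.5 to 1729 FPKM in WT, with a median of 577 FPKM, and from 33.5 to 1593 FPKM in KO, with a median of 544 FPKM. The order of the genes was alike in the libraries (Spearman's rho 0.94 over 79 genes of 2 libraries, a description only).

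**Figure D1:**
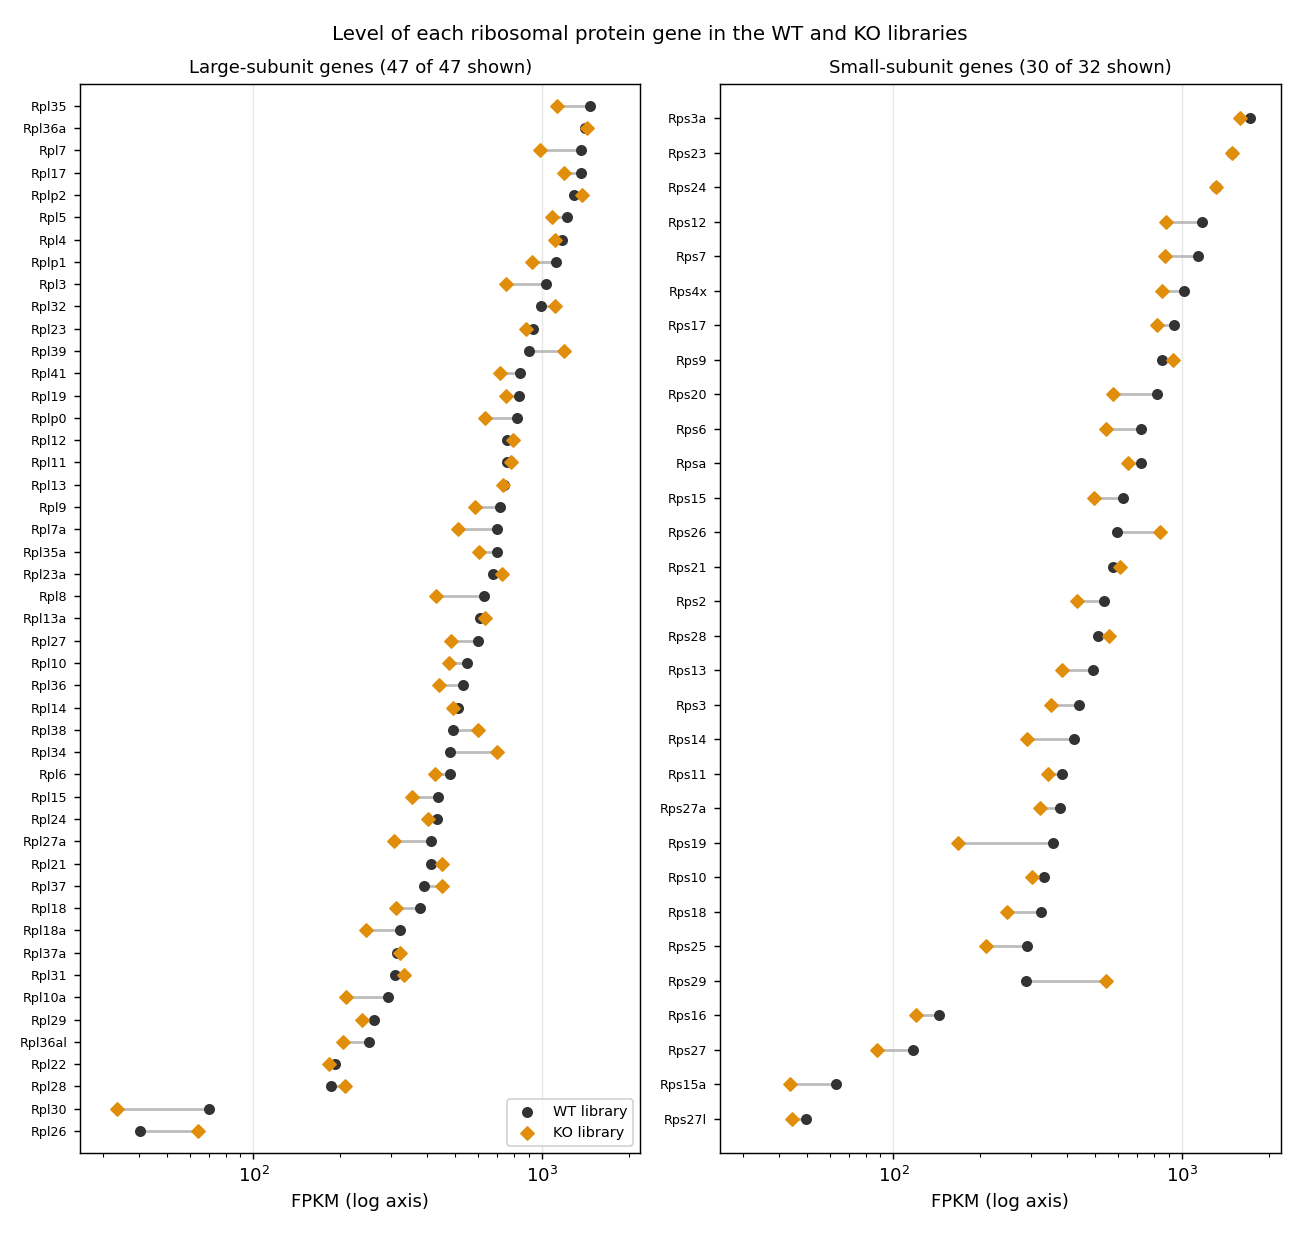
Level of each expressed ribosomal protein gene, as FPKM on a log axis, in the WT library (dark circles) and the KO library (orange diamonds), for 47 large-subunit and 30 of the 32 small-subunit genes in order of their WT level. Most pairs lie close together, most genes lie above 100 FPKM, and Rps19, Rps29, Rpl30 and Rpl26 have the widest gaps.

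At the top of the range stood Rps3a, which lies near the mRNA exit of the small subunit, at 1729 FPKM in WT against 1593 FPKM in KO. Rps23, a protein of the decoding centre, was at 1493 and 1499 FPKM, and Rps24 at 1315 and 1317 FPKM. Of the large subunit, Rpl36a was at 1415 FPKM in WT against 1438 FPKM in KO, Rpl35, which lines the exit of the peptide tunnel, at 1470 and 1128 FPKM, and the stalk protein gene Rplp2 at 1293 and 1375 FPKM. Rpl35 was thus the only one of these 6 genes of highest mean to differ by more than 0.12 on the log2(FPKM + 1) scale, at -0.38. The highest level of the expressed genes was 42.7 times the lowest in WT and 47.5 times in KO. The lowest were Rpl26 in WT and Rpl30 in KO, and each has a near-identical copy with a higher value. Summed with that copy, Rpl26 was at 1723 FPKM in WT and Rpl30 at 442 FPKM in KO. The lowest value in each library is thus uncertain. The wide range does not rest on these 2 genes alone. Within the small subunit, which holds neither, the highest level was 34.8 times the lowest in WT and 36.4 times in KO.

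The comparison of KO with WT asks whether the ventricle without Fendrr holds a different set of ribosomal protein mRNAs. The ratio used was log2((KO + 1)/(WT + 1)) in FPKM, and all folds counted below are on this scale, with 1 FPKM added. The 79 genes had a median of -0.19, with the middle 50% of genes between -0.38 and 0.03. The median of all 11349 expressed genes was -0.11, and that of the 450 other genes averaging 100 FPKM or more was -0.18, close to the ribosomal protein genes. Of the 79 genes, 50 (63.3%) lay below the median of all expressed genes. The background of that count is 50% of all expressed genes and 61.8% of the other genes of at least 100 FPKM, which were not matched to the family in level, so the share is near that of the second background. A log2 ratio below 0 was found for 56 of 79, against 67% of all expressed genes and 72.7% of the abundant ones.

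Few members were far apart. At least 1.5-fold lower in KO were 3 of 79 genes, among them Rps19 and Rpl30, or 3.80%, against 3.6% of all expressed genes and 6.67% of the other genes of at least 100 FPKM. At least 1.5-fold higher were 2 (Rps29 and Rpl26), or 2.53%, against 1.54% and 1.56% of the same backgrounds. Of these, Rps19 and Rpl30 were also at least 2-fold lower (backgrounds 0.388% and 1.78%), and none was 2-fold higher (backgrounds 0.467% and 0.222%). At 1.5-fold these shares are near the background. With both libraries centred on their median, Rps19 was at -0.98 and Rps29 at 1.03, so that 0 genes were 2-fold lower and 1 was 2-fold higher, and 4 were 1.5-fold higher.

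**Figure D2:**
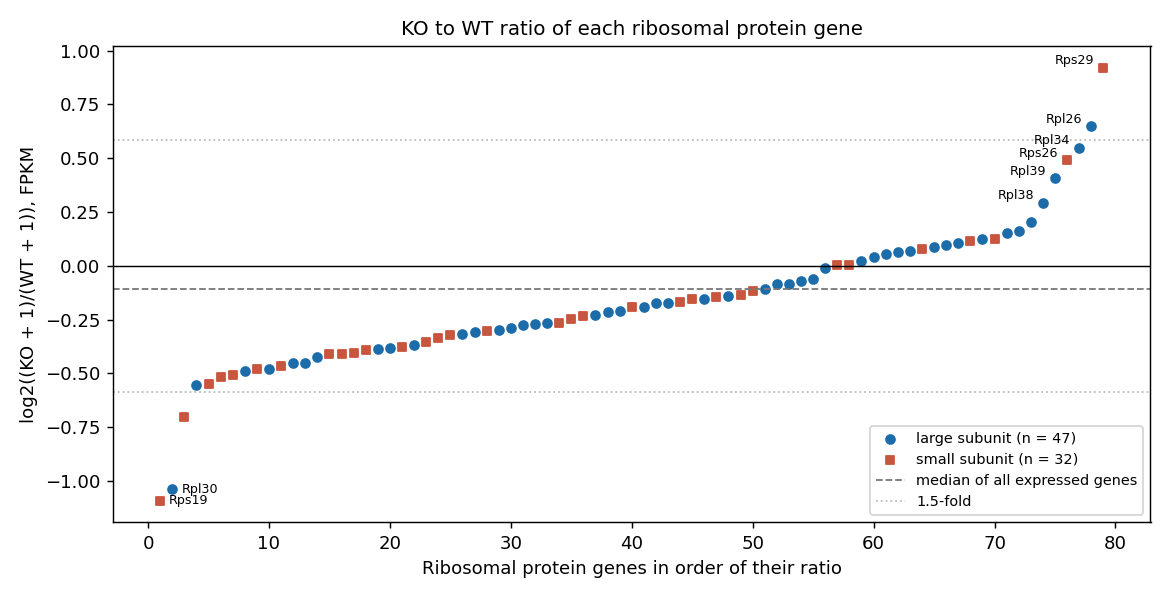
log2((KO + 1)/(WT + 1)) in FPKM of the 79 expressed ribosomal protein genes in order of their ratio, by subunit, with dotted lines at 1.5-fold and a dashed line at the median of all expressed genes (-0.11). Rps19 and Rpl30 lie lowest, at -1.09 and -1.04, and Rpl26 and Rps29 lie above the upper dotted line.

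The genes of the small subunit lay lower as a group than those of the large subunit. The 32 small-subunit genes had a median log2 ratio of -0.28, and 25 of them (78.1%) lay below the median of all expressed genes. The 47 large-subunit genes had a median of -0.15, with 25 (53.2%) below that median. The medians differed by 0.13, less than the spread of single genes, whose middle 50% spanned 0.28 in the small and 0.37 in the large subunit. As summed levels, the small subunit went from 20074 FPKM in WT to 17726 FPKM in KO, and the large subunit from 31435 to 29027 FPKM.

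Of the small-subunit genes, Rps19, which is needed to mature the small subunit's RNA and is the gene most often mutated in Diamond-Blackfan anaemia, was at 357 FPKM in WT against 167 FPKM in KO, a log2 ratio of -1.09. Rps14, whose loss underlies the anaemia of the 5q- syndrome, was at 424 and 290 FPKM (-0.55). Both lay below the median of all expressed genes, and Rps19 had the lowest ratio of the family.

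Rps15a, a protein of the small subunit's body, was at 63.1 FPKM in WT against 43.8 FPKM in KO (-0.52). At the other end, Rps29, a short zinc-binding protein of the small subunit's head, was at 288 FPKM in WT against 546 FPKM in KO, a log2 ratio of 0.92 and the highest of all members. Rps26, which contacts mRNA at the exit channel, was at 596 and 838 FPKM (0.49). The small subunit thus held both the lowest and the highest ratio of the family.

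Of the large-subunit genes, Rpl30, a small RNA-binding protein, was at 70.0 FPKM in WT against 33.5 FPKM in KO (-1.04). Rpl8, which lies near the peptidyl transferase centre, was at 629 and 428 FPKM (-0.55). Higher in KO were Rpl26, which lies by the tunnel exit and also binds p53 mRNA, at 40.5 and 64.0 FPKM (0.65), Rpl34, at 479 and 702 FPKM (0.55), Rpl39, a very short protein of the peptide tunnel, at 902 and 1196 FPKM (0.41), and Rpl38, at 491 and 602 FPKM (0.29). Rpl38 is known for its part in translating a subset of Hox mRNAs in the embryo. Of these large-subunit genes, Rpl26, Rpl30 and Rpl34 have an expressed near-identical copy in the table, with values given below.

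Groups set by role within the ribosome were mixed. Of the stalk that recruits elongation factors, Rplp0 was at 821 FPKM in WT against 635 FPKM in KO, Rplp1 at 1119 and 923 FPKM, and Rplp2 at 1293 and 1375 FPKM. The pair that joins 5S RNA and can hold back the p53 regulator Mdm2 was little apart: Rpl5 was at 1228 and 1088 FPKM and Rpl11 at 755 and 783 FPKM. Rps27a, made as a fusion with ubiquitin, was at 379 and 323 FPKM. Fau, which joins a ubiquitin-like protein to a small-subunit protein, was at 411 and 309 FPKM.

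The 9 genes of proteins at the peptide tunnel and its exit had a median of -0.07, with 3 below the median of all expressed genes. The 18 genes linked to Diamond-Blackfan anaemia had a median of -0.18, with 11 below it, and hold both Rps19 and Rps29. The 4 members on the X chromosome lay on both sides of the median of all expressed genes: Rps4x was at 1015 FPKM in WT against 855 FPKM in KO and Rpl10 at 550 and 476 FPKM, whereas Rpl36a was at 1415 and 1438 FPKM and Rpl39 at 902 and 1196 FPKM. Of the expressed members, 30 hold an annotated small nucleolar RNA gene within the gene on the same strand, and their median was -0.17, against -0.23 for the other 49.

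Short ribosomal proteins tended to have the higher ratios. The 10 expressed genes for proteins under 100 residues had a median log2 ratio of 0.10, and 7 of them lay above the median of all expressed genes. The 47 genes for proteins of 100 to under 200 residues had a median of -0.19, and the 22 genes for proteins of 200 residues or more had a median of -0.31, with 18 of 22 below the median of all expressed genes. Spearman's rho between ratio and protein length was -0.30 over the 79 genes, -0.38 in the large and -0.16 in the small subunit, a description across genes of the same 2 libraries that share short transcripts and high abundance. With transcript GC content, rho was -0.05.

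The shortest proteins did not all go with the higher ratios. Rpl41, at 25 residues the shortest, was at 841 FPKM in WT against 717 FPKM in KO (-0.23), and Rps27, of 84 residues, at 116 and 87.6 FPKM (-0.41). Within the length class of 100 to under 200 residues the small subunit (19 genes) had a median of -0.34 and the large subunit (28 genes) -0.12. In the longest class the medians were -0.31 (8 genes) and -0.26 (14 genes), so that in the small subunit the longest class was not below the middle one, and in the shortest 0.08 and 0.20 (5 genes each). The small-subunit median was therefore the lower one in each class.

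The same classes were formed for other genes. Outside the family, genes averaging 100 FPKM or more had a median of 0.01 for proteins under 100 residues (42 genes), -0.24 for 100 to under 200 residues (138 genes) and -0.17 for 200 residues or more (253 genes). In the same order, 18 of 42, 93 of 138 and 158 of 253 lay below the median of all expressed genes. Among all expressed genes outside the family the medians were -0.10 (231 genes), -0.15 (1238 genes) and -0.11 (9426 genes). A higher median in the shortest class was thus also present in other abundant genes. Per the labels, a filter on read length was possibly applied to the WT run and not to the KO run, and its part in these values was not tested.

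**Figure D3:**
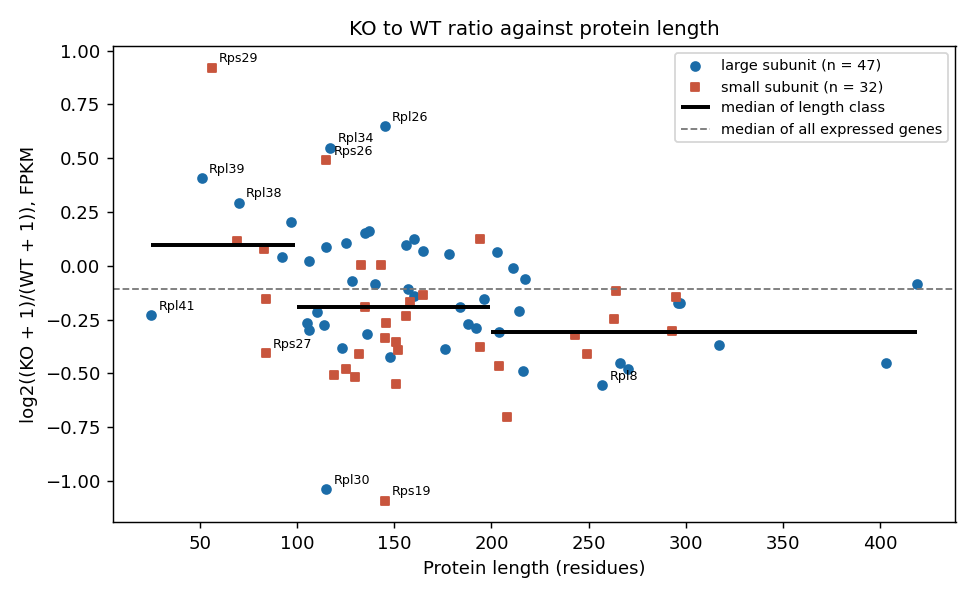
log2((KO + 1)/(WT + 1)) in FPKM of the 79 expressed ribosomal protein genes against the length of the protein in residues, with the median of 3 length classes as black bars and the median of all expressed genes dashed. The black bars step down from 0.10 to -0.19 and -0.31.

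The paralogues fell into silent and expressed ones. Rpl3l, the striated-muscle form of Rpl3 that replaces it in mature heart and skeletal muscle, was at 0.223 FPKM in WT against 0.0585 FPKM in KO, while Rpl3 was at 1032 and 754 FPKM. Rpl10l and Rpl39l, which are testis forms of Rpl10 and Rpl39, were listed at 0 in both libraries. For these 3 pairs the ventricle mRNA at E12.5 was that of the common form.

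Other paralogues were expressed below their parents. Rps27l, a p53 target, was at 49.7 FPKM in WT against 44.6 FPKM in KO, and its parent Rps27 at 116 and 87.6 FPKM, a ratio of parent to paralogue of 2.34 in WT and 1.97 in KO. Rpl36al, an autosomal paralogue of X-linked Rpl36a, was at 251 and 204 FPKM, and the parent was at 5.63 times its level in WT and 7.05 times in KO. By the search for shared read-length windows described below, Rps27 shared 98.4% of its windows with other genes and Rps27l 0%. For Rpl36a and Rpl36al these shares were 83.5% and 30.8%. The handling of reads with several matches is not given, so the parent-to-paralogue ratios of both pairs, and their change between libraries, are uncertain. Of 2 further paralogues outside the symbol rule, Rpl22l1 was at 55.7 and 40.5 FPKM beside Rpl22 at 192 and 182 FPKM, and Rpl7l1 at 31 and 32 FPKM beside Rpl7 at 1368 and 983 FPKM. Rps4y2, the older symbol of the Rps4l row, was at 42.2 and 41.6 FPKM.

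Ribosomal protein genes have many processed pseudogenes, so that a read may match several places. For each member, all windows of 100 bases (the read length) that touch the coding sequence were searched in the transcripts of other annotated genes of GENCODE vM21. Of the 79 expressed members, 72 shared at least 1 window with another gene, and 41 shared 50% or more of them. Rps27 shared 98.4% of its windows, Rpl5 92.8% and Rpl10 91.6%, whereas Rps3, Rps21, Rps27l, Rpl22, Rpl32 and Rpl41 were among the 7 that shared none. Spearman's rho of this share over 79 genes was 0.07 with the level and -0.11 with the ratio. The 38 members that shared under 50% of their windows had a median log2 ratio of -0.14, and 20 of them (52.6%) lay below the median of all expressed genes. The 41 members that shared 50% or more had a median of -0.23, with 30 (73.2%) below it. The difference between these sets was not tested.

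For some members a copy with a row of its own held many reads. Gm15772, annotated as a pseudogene of the Rpl26 sequence, was at 1683 FPKM in WT against 1447 FPKM in KO beside 40.5 and 64.0 FPKM for Rpl26. Summed, the pair was at 1723 and 1511 FPKM, a log2 ratio of -0.19 in place of 0.65. Gm12191, which matches Rpl30, was at 373 and 408 FPKM, and its sum with Rpl30 was 443 and 442 FPKM, a log2 ratio of -0.0044 in place of -1.04. The separate values of Rpl26 and Rpl30 are therefore uncertain, and neither pair was 1.5-fold apart when summed.

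Rpl34-ps1 was at 461 FPKM in WT against 478 FPKM in KO, and summed with Rpl34 the log2 ratio was 0.33 in place of 0.55. Rps15a with Rps15a-ps4 and Rps15a-ps6 had -0.30 in place of -0.52. Rps19 shares 46.3% of its windows with 6 pseudogenes. The only one with a row, Rps19-ps3, was at 2.69 and 4.15 FPKM, and its sum with Rps19 kept a log2 ratio of -1.07. The other copies of Rps19 have no row, so this sum does not cover them. Rps29 shares 27.5% of its windows with 1 pseudogene that has no row here.

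**Figure D4:**
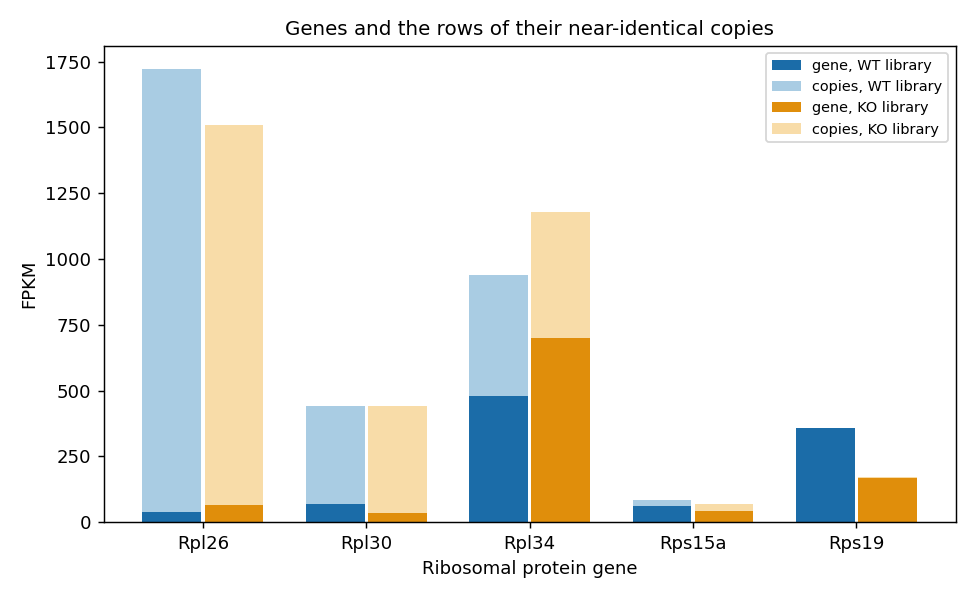
FPKM of 5 ribosomal protein genes (dark) and of the rows that share at least 1 window of 100 bases with them (light, stacked), in the WT (blue) and KO (orange) libraries. The copies hold most of the Rpl26 signal (1683 of 1723 FPKM in WT) and of the Rpl30 signal (373 of 443 FPKM in WT). For Rps19 the gene itself does and stays lower in KO, but most of its copies have no row and are not drawn.

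Genes that build ribosomes and use them were set beside the family. Of 56 expressed genes of ribosome biogenesis and rRNA processing, the median log2 ratio was -0.15, with 3 at least 1.5-fold lower (5.36%, against 3.6% of all expressed genes and 6.67% of the other abundant ones) and none higher. Npm1, a nucleolar chaperone, was at 930 FPKM in WT against 865 FPKM in KO, and Rrp1 at 90.7 and 85.7 FPKM. The furthest apart were Grwd1, a histone-binding assembly factor (9.84 and 5.08 FPKM), and Eif6, which keeps the large subunit from joining too early (19.6 and 11.2 FPKM). The 15 genes of RNA polymerase I and 5S transcription had a median of -0.18 and none was 1.5-fold apart. Polr1d was at 75.8 and 60.9 FPKM, Taf1d at 71.2 and 74.8 FPKM, Taf1b at 12 and 14.5 FPKM and Polr2f at 30.7 and 23.0 FPKM.

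The 14 genes listed under elongation and termination had a median of -0.29, as low as the small-subunit genes. Of them 1, Eef1e1, was at least 1.5-fold lower (7.14%, against the same backgrounds). The list also holds genes that are not themselves factors of these steps, Eef1e1 among them. Eef1a1, which brings aminoacyl-tRNA to the ribosome, was at 3629 FPKM in WT against 2972 FPKM in KO, and Eef2, the translocase, at 546 and 417 FPKM. Eef1e1 was at 23.6 and 15.3 FPKM and Eif5a2 at 9.02 and 6.19 FPKM. The 40 initiation factor genes had a median of -0.17, with 1 at least 1.5-fold lower and 1 higher (2.5% each, against 3.6% lower and 1.54% higher of all expressed genes). These counts are near the background. The helicase gene Eif4a1 was at 444 and 310 FPKM, Eif3e at 227 and 191 FPKM, Eif4h at 122 and 79.0 FPKM and Eif3j2 at 2.95 and 5.41 FPKM.

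Gnb2l1 (Rack1), a scaffold protein on the small subunit, was at 529 FPKM in WT against 346 FPKM in KO, a log2 ratio of -0.61, and shared no window with another gene. Of 20 expressed regulators of ribosomal protein synthesis, none was 1.5-fold apart with 1 FPKM added, and the median was -0.17. Cnbp, which binds the pyrimidine tract mRNAs, was at 249 and 210 FPKM, and Eif4ebp1, a target of mTOR, at 61.7 and 49.4 FPKM. Mycn, a driver of ribosome production, was at 14.0 and 9.51 FPKM, and Mxi1, an antagonist of Myc, at 6.75 and 10.5 FPKM, a log2 ratio of 0.57 that lies just inside the limit on that scale. The medians of all these lists lay between -0.29 and -0.15, below the median of all expressed genes.

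**Figure D5:**
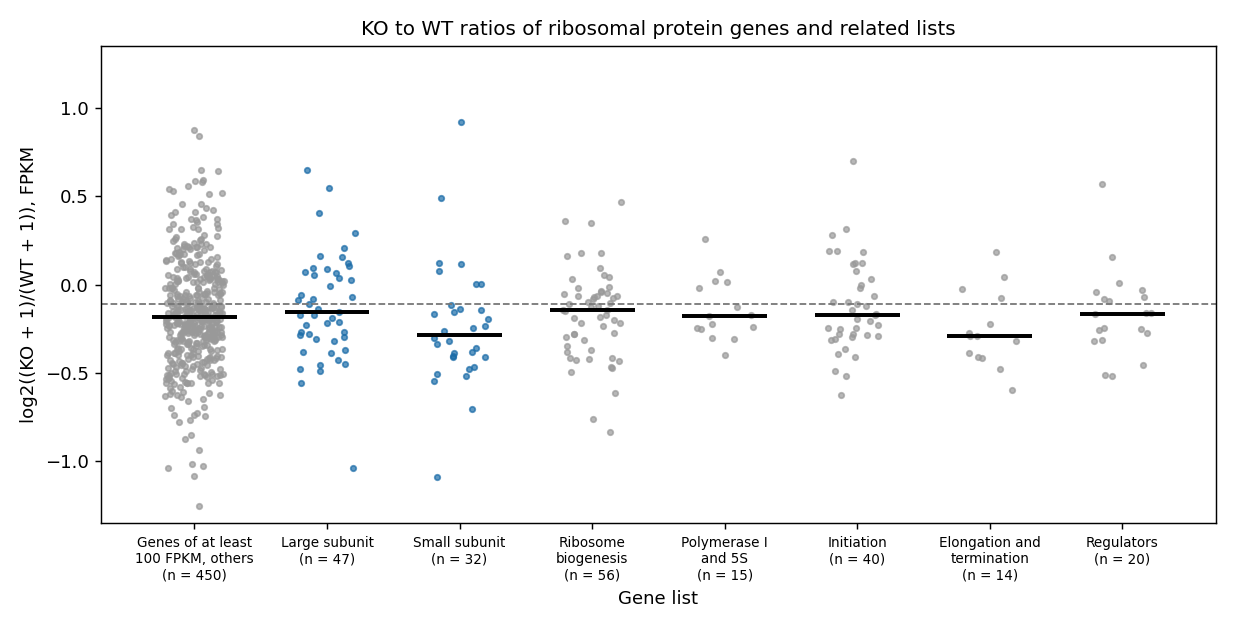
log2((KO + 1)/(WT + 1)) in FPKM of single genes (points) and list medians (black bars) for the other genes of at least 100 FPKM, for the ribosomal protein genes by subunit (blue) and for related lists, with the median of all expressed genes dashed. The small-subunit and the elongation lists have the lowest medians, at -0.28 and -0.29, and 4 points beyond 1.3 on either side are not drawn.

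Markers of other cell types that a ventricle pool could hold were summed beside the family. The 8 erythroid markers, all expressed, reached a total of 4865 FPKM in WT against 5482 FPKM in KO, with a median log2 ratio of -0.15 and 5 of 8 below 0. The higher sum came mainly from Hba-a1, at 1583 and 2122 FPKM. The 5 leukocyte markers, of which 4 were expressed, summed to 6.99 and 11.8 FPKM. Of the 4 liver and yolk sac markers, 2 were expressed, with a sum of 0.548 and 18.4 FPKM, and Alb was listed at 0 in both libraries. The 4 fibroblast and cushion markers summed to 376 and 459 FPKM, the 5 endothelial markers to 149 and 145 FPKM and the 4 epicardial markers to 52.2 and 57.6 FPKM. Of the 4 skeletal muscle markers 1, Ckm, which heart also expresses, reached 1 FPKM, at 45.8 and 84.6 FPKM. Their part in the ratios of ribosomal protein genes was not tested.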

How the data were processed

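Ventricle RNA, pooled per genotype and freed of rRNA, went into strand-specific libraries read for 100 bases, per the labels' protocols. The authors deposited 1 FPKM value per gene symbol and library, and the submitters' processing notes name mm9, Cufflinks 2.0.2, Bowtie2 2.0.2 and TopHat2 2.0.6. For the annotation, the options and the handling of reads with several matches, the choice is not given in the sources used here.

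Ratios were computed with a pseudocount of 1 FPKM for genes averaging 1 FPKM or more. This scale understates differences of low genes. With 1 library per genotype, folds of 1.5 and 2 were counted as descriptions. Relative depth came from 2213 genes with a mean under 0.3 FPKM, of which 69.1% had ratios within 0.1% of whole-number ratios at 1 step. At steps further away this share had a median of 1.08% and reached 42.4% at the highest. Coding lengths (found for 96.7% of expressed genes), pseudogenes and shared windows came from GENCODE vM21 (GRCm38), a later build than that of the values. All 82 members matched, Rps3a through its RefSeq synonym. A transcript with the coding length of the principal isoform was used, the shortest if several.

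The members and lists were chosen with earlier results of these data known. Named genes were the 6 highest by mean, the 6 lowest and 6 highest by ratio, all paralogues and role groups, and 2 by mean and 2 by ratio of each other list. Some genes of that rule are not reported here. Others were named after their values were seen. Alternatives changed the pseudocount, the filter, the scaling and the members counted. Ratios were tested on simulated data. Python 3.11.15, numpy 2.4.6, pandas 2.3.3, scipy 1.17.1 and matplotlib 3.10.9 were used.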

Additional observations from a re-analysis of the deposited data

How the results depend on the processing

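No paired analysis was possible because 1 WT and 1 KO library were made, and leaving one out would end the comparison. The median log2 ratio of the family, -0.19 as deposited, was -0.084 with median centring, -0.056 with upper-quartile scaling, -0.067 with trimmed-mean scaling and -0.046 with quantile normalization, since these scalings bring the median of all genes to about 0. In the same order the large-subunit median was -0.046, -0.018, -0.029 and -0.0095, and the small-subunit median -0.18, -0.15, -0.16 and -0.15. Under each of these 4 scalings 4 genes in place of 2 were at least 1.5-fold higher, 0 in place of 2 were at least 2-fold lower and 1 in place of 0 was at least 2-fold higher. A pseudocount of 5 FPKM left 1 gene at least 2-fold lower. The difference between the subunit medians lay between 0.13 and 0.18 under all 12 alternatives. Of the 8 that changed the pseudocount, filter or scaling, the one without a filter had 57 of 82 members below the median of all genes. That median was then 0, so this count is not like the others, which were 49 to 54 of 79. The median of all genes moved by 0.11 with centring, so members near a log2 ratio of 0 have no fixed direction.

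The last 3 alternatives were chosen after seeing the data. With members that share under 50% of their windows (38 genes), 20 lay under the overall median (52.6%, against 63.3% of the 79) and the family held 6.60% of FPKM in WT and 6.88% in KO, the last over fewer genes. With proteins of at least 100 residues 1 gene was at least 1.5-fold higher. With members summed with their copies, 1 passed 1.5-fold upward and 1 passed 2-fold downward. Copies here were all rows outside the family that share at least 1 window with a member. Some are other protein-coding genes, such as Med21, whose whole value (63.5 FPKM in WT, 45.2 FPKM in KO) was added to Rps26. Total depth is unknown, so no counting error can be given for any value.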
